A study of Mus musculus with 24 samples.

Results

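The interaction of hepatic Atg5 loss with hepatic Tsc1 loss was measured in mouse liver RNA as (DKO − TSC1 KO) − (Atg5 KO − WT) on the log2 scale. It is 0 where the change with both deletions equals the sum of the 2 single changes, which is a product of the folds on a linear scale. The contrast takes 16 of the 24 libraries of the series, all those of the 4 genotypes it needs, with 4 libraries each, and 15851 genes were tested in it. The groups were livers labelled with hepatic deletion of both Atg5 and Tsc1 (DKO), of Tsc1 alone (TSC1 KO), of Atg5 alone (Atg5 KO), and wild-type livers (WT), all from C57BL/6J mice aged 2 months. The other 8 libraries, from triple knockouts, entered the filter on low counts, the scaling and the estimate of the spread. With only the 4 groups in the fit, 15442 genes were tested and the interaction was called above 0 in 2276 and below 0 in 3454. The sources used here do not give the driver of the deletions, the exons removed or the sex of the mice. Whether libraries came from separate animals is not stated either, and p-values measure only the spread between libraries, which may in part be technical.

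ATG5 is part of the conjugation machinery that attaches LC3 to the growing autophagosome, and hepatocytes without it cannot degrade cytoplasm by autophagy. Loss of autophagy in the liver is known for the build-up of p62, which binds KEAP1 and so frees NRF2, a transcription factor that drives antioxidant and detoxifying genes. TSC1 stabilises TSC2, which restrains the growth kinase complex mTORC1. An active mTORC1 drives the synthesis of protein and lipid and holds back the start of autophagy.

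Total counts per library ran from 11283916 to 13057467 over the 16 libraries, and levels below are CPM, each count as a share of its library total after TMM scaling. The TMM factors ran from 1.4915 to 1.558 in DKO, from 0.8031 to 0.8521 in TSC1 KO, from 0.8534 to 1.0579 in Atg5 KO and from 0.7166 to 0.813 in WT. The 20 most abundant genes took 13.32% to 13.7% of counts in DKO and 21.01% to 26.71% in WT. The first principal component of the 16 libraries held 73.7% of the variance over the 2000 genes used. DKO scored 106.2 to 119.8 on it, TSC1 KO -49.5 to -29.4, Atg5 KO -18.8 to 5.5 and WT -75.3 to -68.9. Atg5 KO replicate 2 stood apart from its group at -18.8, and WT replicate 4 was high in acute-phase and metal-binding genes. Named genes whose call or sign rests on either library, and some others in which it stood apart, are also given without it. Alb, which marks hepatocytes, had at least 5783 CPM in each library.

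Counts over whole genes did not show either deletion against WT. Atg5 (ENSMUSG00000038160, chr10:44268358-44364291 on GRCm38) had 24.1, 25.1, 20.1 and 24.5 CPM in DKO, 88.6, 81.9, 79.8 and 84.5 in TSC1 KO, 46.7, 38.6, 46.7 and 40.1 in Atg5 KO and 31.4, 27.7, 25.5 and 22.5 in WT libraries. The TSC1 KO libraries were the highest and the Atg5 KO libraries lay above WT. The DKO libraries overlapped WT and lay far below all TSC1 KO libraries. The interaction of Atg5 was -2.52 ± 0.18 (adjusted p = 5.35e-09). Tsc1 (ENSMUSG00000026812, chr2:28641228-28691167) had 53.1, 24.9, 31 and 37.4 CPM in DKO, 29.1, 33.8, 30.3 and 30.7 in TSC1 KO, 27.5, 45.6, 28.9 and 28.2 in Atg5 KO and 35.7, 34.9, 36.7 and 33.1 in WT libraries. The 4 groups overlapped, and its interaction of 0.35 ± 0.27 (adjusted p = 0.338) was not called. Transcripts that lack only some exons would still be counted, so group names below are those of the labels.

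The joint change departed from the sum of the single changes in 5517 of 15851 genes, which is 34.8% (edgeR's quasi-likelihood test, Benjamini-Hochberg adjusted p under 0.05, as for all calls and adjusted p-values below). The interaction was above 0 in 2451 genes (15.5%) and below 0 in 3066 (19.3%). DKO versus WT alone called 10988 genes (69.3%), of which those higher in DKO were 37.1% and those lower 32.3% of all tested. TSC1 KO versus WT called 2598 (16.4%), with 8.79% higher and 7.6% lower, and Atg5 KO versus WT 4738 (29.9%), with 18.6% higher and 11.3% lower. The called interactions fell into 5 classes. In 1959 genes the DKO level was above WT by more than the sum, and in 2568 it was below WT by more than the sum. In 158 genes the DKO level was above WT but short of the sum, in 60 it was below WT but short of the sum, and in 772 DKO was not called against WT. The smallest class had between 32 and 39 genes without any 1 of 10 libraries, which were DKO replicates 1 to 4, TSC1 KO replicates 2 to 4, Atg5 KO replicate 1 and WT replicates 1 and 4. Without the filter on low counts the classes short of the sum had 95 and 31 genes.

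Of the genes that went beyond the sum, 1250 of the 1959 increases and 1652 of the 2568 decreases were called in neither single deletion. Most genes of any kind were called in neither, as Atg5 KO versus WT called 29.9% of all genes tested and TSC1 KO versus WT 16.4%. These counts are therefore not particular to the genes beyond the sum. The median change of the increases beyond the sum was 1.51 in DKO, -0.01 in TSC1 KO and 0.25 in Atg5 KO, all log2 against WT. The median change of the decreases beyond the sum was -1.5 in DKO, 0.03 in TSC1 KO and -0.28 in Atg5 KO. The increases short of the sum need a large single change by their definition, and 84 of 158 were called in both single deletions. When the departure was taken on CPM instead of log2, its sign was the same in 100% of the increases and 97% of the decreases beyond the sum, and in 89.9% of the increases short of it. Where both single changes go the same way, the log2 sum gives a level at or above that of the CPM sum. The sign for such increases beyond the sum was therefore fixed in advance, and for these genes the 100% is no check of the scale.

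The balance of signs depends on the scaling. When libraries were scaled by total counts alone, the interaction was called in 7304 genes, 5620 above 0 and 1684 below 0. The median interaction of all genes was then 0.52, against 0.03 with TMM. The increases beyond the sum then numbered 5337, the decreases beyond it 1131, and the increases and decreases short of it 164 and 34. All interactions below are relative to the TMM scale, and list counts with total counts alone are given beside those with TMM.

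**Figure D1:**
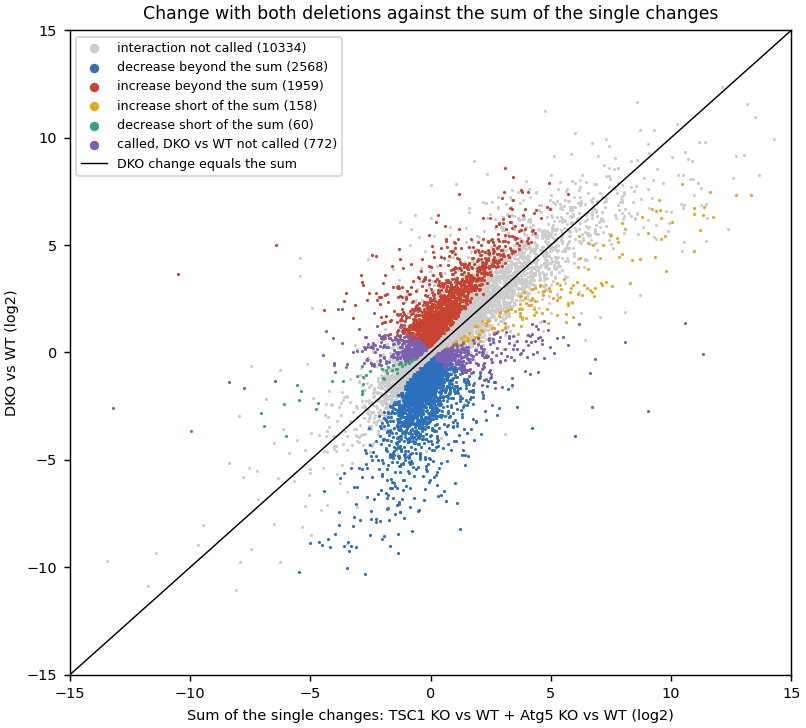
Each point is 1 of the 15851 genes tested, with the sum of the TSC1 KO and Atg5 KO changes against WT on the x axis and the DKO change against WT on the y axis, both log2. Genes below the diagonal near an x of 0 form the 2568 decreases beyond the sum, genes above it the 1959 increases beyond the sum, and the 158 increases short of the sum lie to the right under the diagonal.

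The 32 lists of liver pathways and cell types, chosen with earlier results of these data known, differed in the share of members called. Among 30 oxidative phosphorylation genes all were called below 0, and lists of hepatocyte function were called below 0 in most members. YAP and TEAD targets were called above 0 in 11 of 24 and below 0 in 0. For all genes tested the shares were 15.5% above and 19.3% below 0. NRF2 targets and interferon-stimulated genes were above WT in DKO at the median, by 0.93 and 1.32 log2, while the sums of the single changes had medians of 1.98 and 2.06. Ductular genes had a median change of 5.21 in DKO beside a median sum of 5.19.

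**Figure D2:**
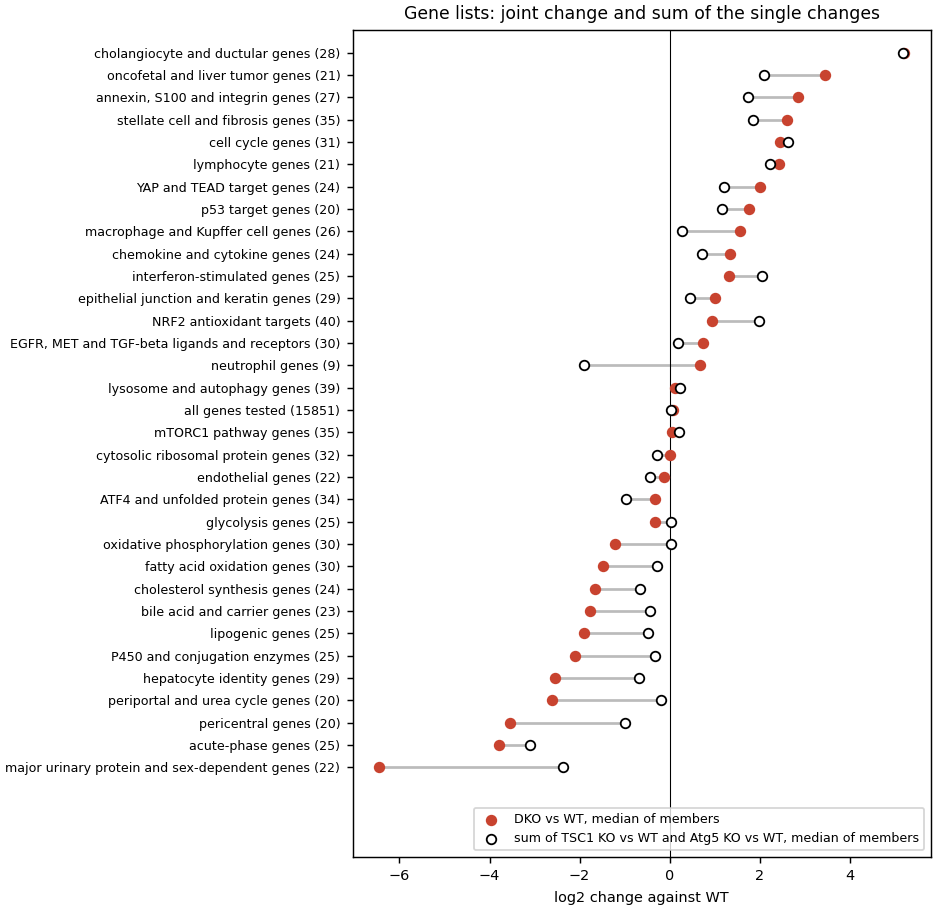
Filled points give the median log2 change of DKO versus WT over the tested members of each list, and open points the median of the sum of the TSC1 KO and Atg5 KO changes versus WT. The number of members is in brackets after each list's name. Hepatocyte lists have filled points well to the left of open ones, and the ductular list has both at about the same place.

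Hepatocyte genes fell beyond the sum. Of 29 hepatocyte identity genes 21 had an interaction below 0 and 0 above, with a median of -1.83, and with total counts alone 20 and 0. Alb, the main plasma protein, had 6690, 7339, 5783 and 6806 CPM in DKO, 43279, 47390, 43161 and 36446 in TSC1 KO, 30593, 74576, 36335 and 23947 in Atg5 KO and 62147, 61706, 67801 and 43405 in WT libraries. All DKO libraries lay below all others, and the sum of the single changes gives 29960 CPM. The interaction of Alb was -2.17 ± 0.37 (adjusted p = 9.76e-05). Apoc3, an apolipoprotein of triglyceride-rich lipoproteins, had 332, 238, 69.9 and 99.9 CPM in DKO, 4219, 2810, 2690 and 3047 in TSC1 KO, 1741, 1972, 2230 and 1983 in Atg5 KO and 1984, 1946, 2058 and 1936 in WT libraries. Its level in TSC1 KO was above WT while DKO was far below, with an interaction of -4.11 ± 0.47 (adjusted p = 7.41e-07). F9, a clotting factor, had an interaction of -2.49 ± 0.26 (adjusted p = 2.37e-07). Apoa1, the apolipoprotein of HDL, had -1.78 ± 0.29 (adjusted p = 5.17e-05), and Serpina1b, a protease inhibitor with near-identical copies whose reads counting may split, had -2.42 ± 0.30 (adjusted p = 1.82e-06). The summed level of the list was 23461 to 31622 CPM in DKO, 135643 to 153110 in TSC1 KO, 84938 to 164702 in Atg5 KO and 161927 to 177163 in WT. In bulk tissue fewer hepatocytes and less RNA per hepatocyte cannot be told apart.

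Genes of both ends of the liver lobule fell beyond the sum. Pericentral genes had an interaction below 0 in 15 of 20 (median -2.80) and periportal and urea cycle genes in 17 of 20 (median -2.07), with 0 above in either list. Scaled by total counts alone, 14 and 16 were below, and 0 and 1 above. Cyp2e1, the pericentral enzyme that oxidises ethanol, had 245, 262, 149 and 153 CPM in DKO, 6020, 3541, 6751 and 6244 in TSC1 KO, 3111, 3499, 2466 and 2220 in Atg5 KO and 6365, 6735, 6121 and 8609 in WT libraries. The DKO range lay below the other 3 groups, and the interaction was -3.5 ± 0.35 (adjusted p = 1.65e-07). Rgn, regucalcin, had 49.1, 59.8, 22.1 and 5.87 CPM in DKO, 2409, 1382, 1982 and 2098 in TSC1 KO, 1130, 1168, 864 and 736 in Atg5 KO and 1347, 1470, 1599 and 1511 in WT libraries. The fitted DKO level was 37.9-fold lower than the 1294 CPM of the sum, with an interaction of -5.24 ± 0.58 (adjusted p = 6.36e-07). Otc, which makes citrulline in the urea cycle, had 92.5, 113, 67 and 50.2 CPM in DKO, 991, 929, 868 and 1020 in TSC1 KO, 452, 640, 487 and 360 in Atg5 KO and 644, 672, 683 and 465 in WT libraries. TSC1 KO was above WT in each library and DKO below, with an interaction of -3.22 ± 0.31 (adjusted p = 1.02e-07). Uroc1, a histidine-degrading enzyme, had an interaction of -2.97 ± 0.31 (adjusted p = 2.57e-07), and Cps1, which starts the urea cycle, -1.93 ± 0.47 (adjusted p = 0.0026).

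Enzymes and carriers of detoxification and bile acid transport behaved likewise. P450 and conjugation enzymes were called below 0 in 19 of 25 (median -2.62) and bile acid and carrier genes in 16 of 23 (median -1.75), with 0 and 1 above. Total counts alone gave 15 and 12 below, and 1 above in each list. Slc10a1, the bile acid uptake carrier, had 26.3, 23.3, 11 and 15.1 CPM in DKO, 677, 561, 720 and 786 in TSC1 KO, 308, 387, 297 and 255 in Atg5 KO and 596, 596, 474 and 491 in WT libraries. The sum gives 396 CPM, and the interaction was -4.39 ± 0.39 (adjusted p = 5.87e-08). Slco1b2, an organic anion carrier, had an interaction of -3.85 ± 0.42 (adjusted p = 5e-07). Cyp3a11, a drug-oxidising P450, had 452, 327, 126 and 166 CPM in DKO, 5491, 5230, 5453 and 5602 in TSC1 KO, 2596, 5744, 3366 and 2018 in Atg5 KO and 5144, 3044, 5390 and 2284 in WT libraries. WT and Atg5 KO libraries scattered widely, yet DKO lay below all of them, and the interaction was -4.14 ± 0.53 (adjusted p = 2.77e-06). Ugt2b1 and Ugt2b5, glucuronosyltransferases of a family with near-identical members, had interactions of -6.83 ± 0.67 (adjusted p = 2.44e-07) and -4.32 ± 0.37 (adjusted p = 3.15e-08).

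The largest decreases beyond the sum, among genes with at least 10 CPM in the highest group and at least 10 counts in each group, included carboxylesterases, a sulfotransferase and urinary proteins. Ces3a, a carboxylesterase of the endoplasmic reticulum, had 10.4, 0.943, 1.35 and 2.16 CPM in DKO, 1975, 1457, 1588 and 1595 in TSC1 KO, 1476, 1827, 1232 and 1116 in Atg5 KO and 2210, 2521, 2904 and 2088 in WT libraries. DKO replicate 1 was the highest of its group and still far below the others, and the interaction was -8.02 ± 0.92 (adjusted p = 1.5e-06). Ces3b and Ces1f, of the same family, had -7.36 ± 0.90 (adjusted p = 3.67e-06) and -6.84 ± 0.77 (adjusted p = 1.37e-06). Sult2a8, a sulfotransferase, had 7.03, 1.47, 1.25 and 1.25 CPM in DKO, 1297, 879, 1179 and 1196 in TSC1 KO, 334, 562, 214 and 153 in Atg5 KO and 1008, 1076, 1015 and 729 in WT libraries. Its interaction was -7.1 ± 0.80 (adjusted p = 1.21e-06). Elovl3, a fatty acid elongase, had 1.14, 0.118, 0.261 and 0.1 CPM in DKO, 269, 173, 192 and 132 in TSC1 KO, 143, 562, 115 and 20.7 in Atg5 KO and 497, 650, 861 and 46.6 in WT libraries. WT replicate 4 and Atg5 KO replicate 4 were the low libraries of their groups, and the interaction was -7.59 ± 1.86 (adjusted p = 0.00371). Major urinary protein and sex-dependent genes were called below 0 in 13 of 22 and above in 0, with a median of -4.17. Total counts alone gave 12 and 1, and with only the 4 groups in the fit 15 and 3. Mup20, Mup21 and Mup3, members of a gene cluster that holds near-identical copies, had interactions of -7.08 ± 0.94 (adjusted p = 6.98e-06), -7.55 ± 1.02 (adjusted p = 1.3e-05) and -6.66 ± 1.0 (adjusted p = 2.96e-05). The split of reads among such copies is uncertain in these counts, and the sex of the mice is not given.

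**Figure D3:**
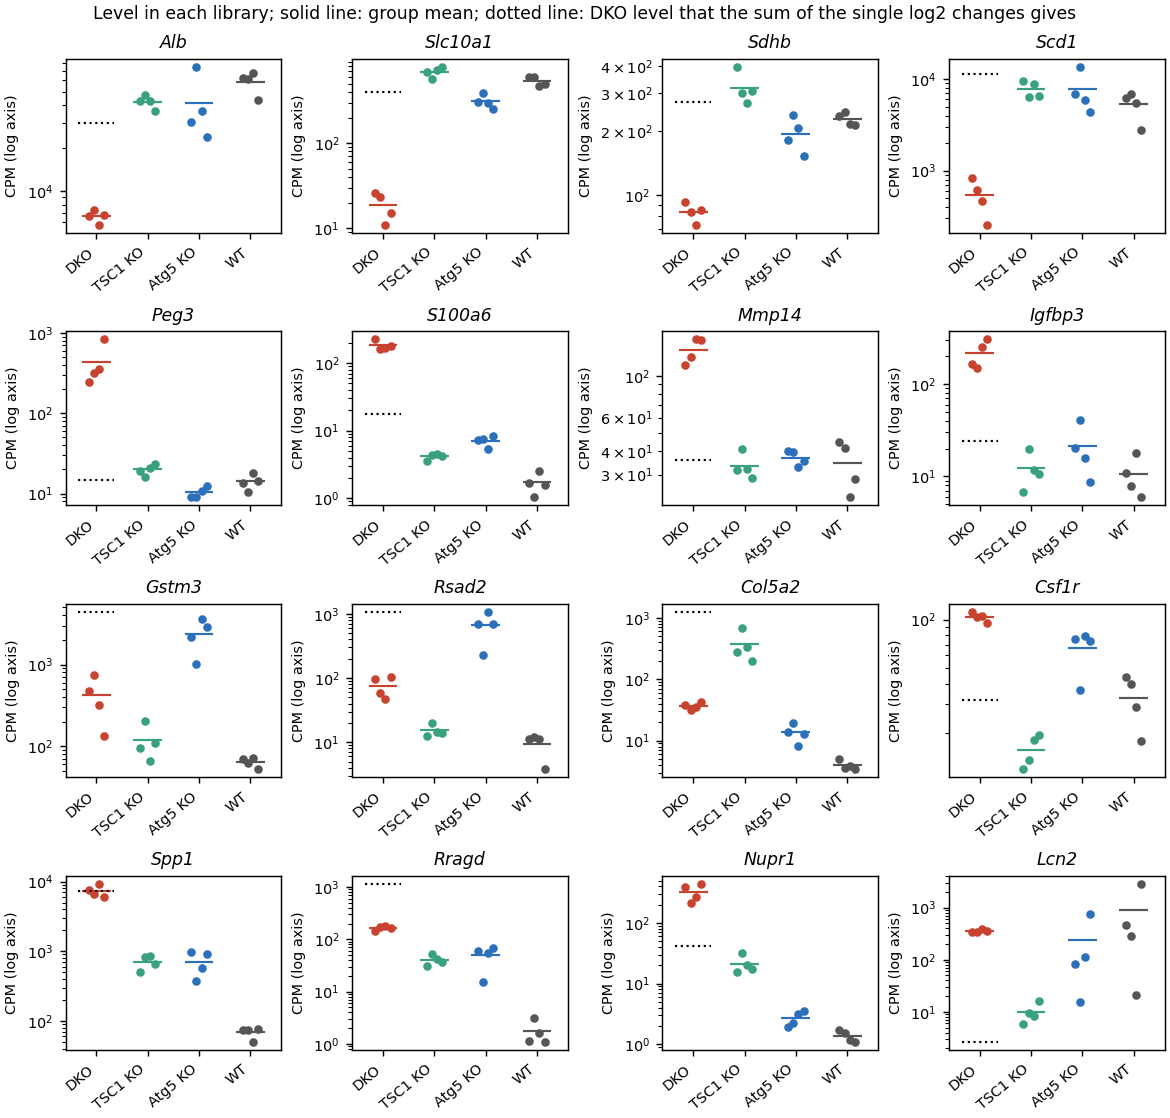
Levels of 16 genes in CPM on log axes, 1 point per library, in the order DKO, TSC1 KO, Atg5 KO and WT, with a solid line at each group mean. The dotted line over DKO marks the level that the sum of the single log2 changes gives: DKO lies below it in Alb, Slc10a1, Sdhb, Scd1, Gstm3, Rsad2, Col5a2 and Rragd, above it in Peg3, S100a6, Mmp14, Igfbp3, Csf1r, Nupr1 and Lcn2, and on it in Spp1.

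Mitochondrial energy genes moved evenly. All 30 nuclear-encoded oxidative phosphorylation genes on the list had an interaction below 0, from -1.7 to -0.79, with a median of -1.12. Their median change was -1.21 in DKO, 0.27 in TSC1 KO and -0.33 in Atg5 KO, so the sum of the single changes was near 0 at 0.03. With total counts alone 25 of 30 were called below 0 and the median was -0.62. Sdhb, the iron-sulfur subunit of complex II, had 93.1, 83.5, 72.9 and 85.2 CPM in DKO, 397, 300, 269 and 306 in TSC1 KO, 181, 237, 206 and 152 in Atg5 KO and 234, 244, 215 and 212 in WT libraries. TSC1 KO lay above WT, Atg5 KO overlapped WT, and DKO lay below all 3, with an interaction of -1.7 ± 0.21 (adjusted p = 1.43e-06). Uqcrfs1, the Rieske protein of complex III, had 113, 99, 82.2 and 82.8 CPM in DKO, 308, 340, 276 and 287 in TSC1 KO, 199, 237, 216 and 157 in Atg5 KO and 245, 256, 273 and 252 in WT libraries. TSC1 KO lay above WT, Atg5 KO below WT and DKO below all 3, with an interaction of -1.34 ± 0.19 (adjusted p = 1.04e-05). Atp5b and Atp5a1, subunits of ATP synthase, had -0.98 ± 0.22 (adjusted p = 0.00127) and -1.11 ± 0.22 (adjusted p = 0.000351).

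Fatty acid oxidation genes were called below 0 in 23 of 30 and above in 0, with a median of -1.28, and below in 19 with total counts alone. Acaa2, the last enzyme of the mitochondrial spiral, had 146, 158, 100 and 115 CPM in DKO, 989, 850, 976 and 983 in TSC1 KO, 667, 858, 678 and 542 in Atg5 KO and 1000, 1017, 1119 and 1053 in WT libraries. The DKO libraries lay below the rest, and the interaction was -2.26 ± 0.24 (adjusted p = 2.57e-07). Bdh1, which makes the ketone body 3-hydroxybutyrate, had 29, 34.3, 26.8 and 11.6 CPM in DKO, 253, 219, 263 and 239 in TSC1 KO, 201, 204, 240 and 185 in Atg5 KO and 196, 200, 220 and 218 in WT libraries. TSC1 KO and Atg5 KO each overlapped WT, and the interaction was -3.25 ± 0.33 (adjusted p = 2.03e-07).

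**Figure D4:**
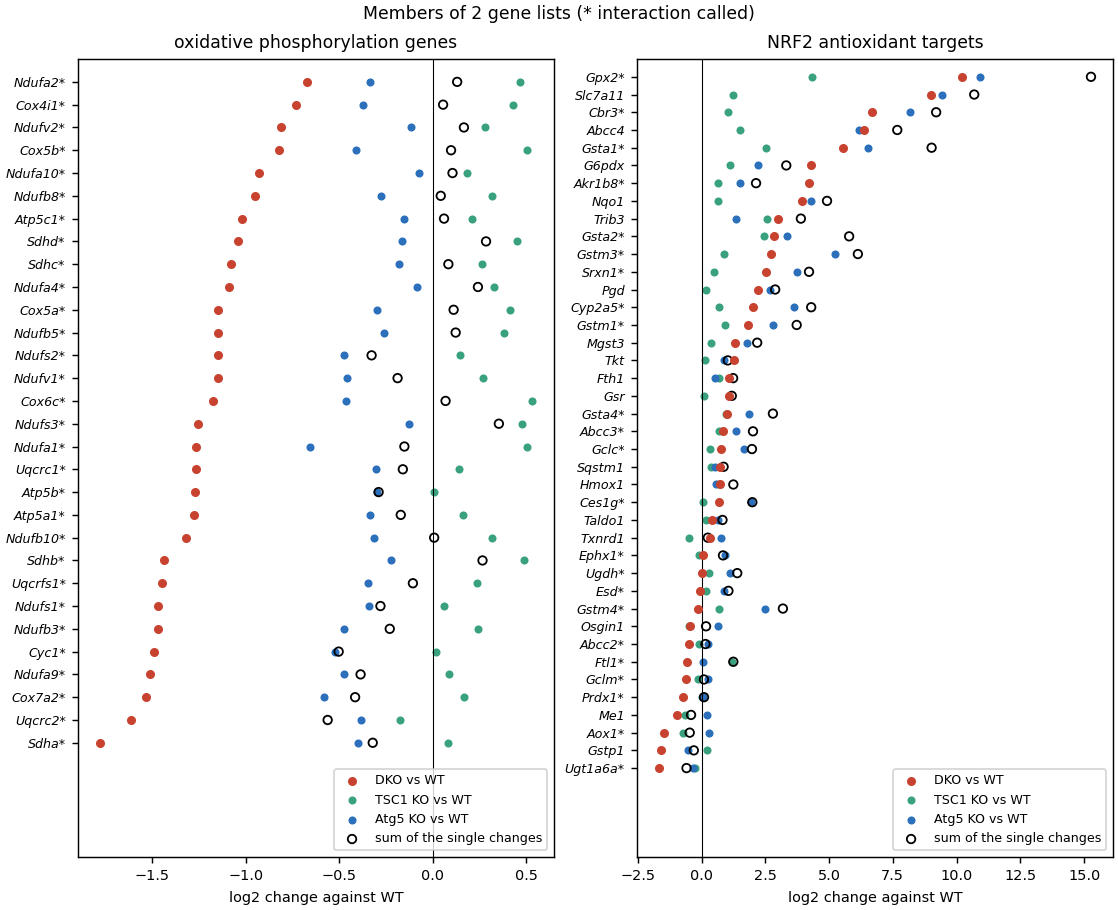
Log2 changes against WT of 30 oxidative phosphorylation genes (left) and 40 NRF2 antioxidant targets (right) in DKO, TSC1 KO and Atg5 KO, with the sum of the single changes as open circles and an asterisk where the interaction was called. On the left each DKO point lies left of its sum, and on the right most DKO points of genes high in Atg5 KO lie left of their sums, with Akr1b8 and G6pdx as exceptions.

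Genes of lipid synthesis fell beyond the sum in most cases, and glycolysis genes were mixed. Lipogenic genes were called below 0 in 17 of 25 and above in 1 (median -1.44), and in 13 and 2 with total counts alone. Scd1, the desaturase of stearate, had 836, 610, 462 and 256 CPM in DKO, 9440, 6414, 8816 and 6584 in TSC1 KO, 6956, 13600, 5957 and 4343 in Atg5 KO and 6176, 6804, 5457 and 2785 in WT libraries. Both single deletions had means above WT while DKO lay below all other libraries, and the interaction was -4.39 ± 0.54 (adjusted p = 1.88e-06). Elovl5, an elongase of polyunsaturated fatty acids, had 99.1, 84.8, 84.1 and 81 CPM in DKO, 683, 792, 619 and 521 in TSC1 KO, 356, 765, 368 and 266 in Atg5 KO and 395, 329, 299 and 179 in WT libraries. Its interaction was -3.45 ± 0.39 (adjusted p = 6.65e-07). Mlxipl, the carbohydrate-responsive transcription factor ChREBP, had -2.49 ± 0.27 (adjusted p = 4.44e-07). Cholesterol synthesis genes were called below 0 in 12 of 24 and above in 1 (median -0.96), which became 6 below with total counts alone. Sc5d and Ebp, late enzymes of the pathway, had -2.66 ± 0.38 (adjusted p = 1.04e-05) and -1.98 ± 0.29 (adjusted p = 1.39e-05). Of 25 glycolysis genes 6 were below and 4 above 0 (median -0.40), and with total counts alone 5 were below and 9 above (median 0.07). On the TMM scale these counts are near the shares of all genes tested, 19.3% below and 15.5% above. The 4 above became 2 without any 1 of DKO replicates 3 and 4, TSC1 KO replicates 1, 3 and 4, Atg5 KO replicate 3 and WT replicate 1. Pklr, the liver form of pyruvate kinase, had -2.28 ± 0.36 (adjusted p = 4.2e-05). Ldha had -0.75 ± 0.32 (adjusted p = 0.0677) and was not called.

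Fetal and imprinted genes were among the increases beyond the sum. Peg3, an imprinted zinc finger gene, had 243, 314, 358 and 835 CPM in DKO, 19.2, 16.3, 20.9 and 23.7 in TSC1 KO, 9.07, 9.17, 10.8 and 12.3 in Atg5 KO and 13.5, 10.6, 18.2 and 14.5 in WT libraries. No single deletion came near the DKO level, and the interaction was 4.91 ± 0.50 (adjusted p = 3.17e-07). Igf2, the fetal growth factor, had 25, 12.9, 46.1 and 11.4 CPM in DKO, 0.328, 0.284, 0.29 and 0.0985 in TSC1 KO, 0.61, 2.43, 0.557 and 0.324 in Atg5 KO and 0.227, 0.578, 0.529 and 0.244 in WT libraries. It was at most 2.43 CPM outside DKO, and the interaction was 5.28 ± 1.6 (adjusted p = 0.0139). Igf2bp2, an RNA-binding protein of fetal tissue, had 4.43 ± 0.56 (adjusted p = 2.71e-06). H19, the noncoding RNA beside Igf2, had 520, 712, 777 and 270 CPM in DKO, 0.547, 2.37, 1.35 and 3.55 in TSC1 KO, 0.686, 1.17, 0.398 and 0.811 in Atg5 KO and 0.567, 0, 0 and 0.365 in WT libraries. It was far higher in DKO than elsewhere, but WT was at 0 counts in 2 libraries and the interaction of 6.48 ± 3.06 (adjusted p = 0.109) was not called, though it was by DESeq2 and with only the 4 groups in the fit. Oncofetal and liver tumor genes were called above 0 in 7 of 21 and below in 1 (median 0.62), and the counts were the same on total counts. Leaving out WT replicate 2 gave 4 above, and without DKO replicate 2 or Atg5 KO replicate 2 the count below was 2. Cd44, a hyaluronan receptor, had 45.4, 47.6, 43.5 and 34.9 CPM in DKO, 2.73, 3.98, 4.25 and 3.94 in TSC1 KO, 24.4, 13.2, 35 and 29.5 in Atg5 KO and 8.51, 7.51, 7.83 and 4.87 in WT libraries. Here Atg5 KO approached and overlapped DKO, TSC1 KO lay below WT, and the interaction was 1.69 ± 0.34 (adjusted p = 0.000482).

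Other increases beyond the sum named by size were not of 1 kind. Ptgds, which makes prostaglandin D2, had 53.3, 39.4, 74.6 and 48.2 CPM in DKO, 4.15, 3.32, 3 and 8.77 in TSC1 KO, 2.82, 2.52, 1.43 and 0.324 in Atg5 KO and 8.74, 7.51, 3.6 and 3.29 in WT libraries. DKO lay above all other libraries, and the interaction was 5.18 ± 0.72 (adjusted p = 1.21e-05). Nbl1, a secreted BMP antagonist, and Tmem151a, a membrane protein, had 4.64 ± 0.67 (adjusted p = 1.41e-05) and 4.59 ± 0.70 (adjusted p = 2.42e-05). Ighg1, an immunoglobulin heavy chain segment whose reads counting may split with its relatives, had 5.03 ± 0.98 (adjusted p = 0.000429).

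YAP and TEAD targets were called above 0 in 11 of 24 and below in 0, with a median of 0.99 beside 0.03 for all genes, and above in 16 with total counts alone. Their summed level was 1172 to 1765 CPM in DKO, 405 to 424 in TSC1 KO, 514 to 600 in Atg5 KO and 396 to 517 in WT. Igfbp3, which binds IGFs, had 164, 149, 250 and 307 CPM in DKO, 6.78, 20, 11.8 and 10.6 in TSC1 KO, 20.1, 40.5, 15.8 and 8.59 in Atg5 KO and 10.9, 7.85, 18 and 5.97 in WT libraries. The DKO libraries lay above all others, and the interaction was 3.16 ± 0.67 (adjusted p = 0.00105). Tead2, a DNA-binding partner of YAP, had 24.1, 23.6, 33.5 and 21.9 CPM in DKO, 1.53, 2.28, 1.93 and 1.48 in TSC1 KO, 1.6, 2.16, 1.11 and 1.13 in Atg5 KO and 0.681, 0.578, 0.953 and 0.609 in WT libraries. TSC1 KO and Atg5 KO were each above WT and DKO beyond both, with an interaction of 2.76 ± 0.47 (adjusted p = 7.95e-05). Wwc1, which encodes the Hippo pathway protein KIBRA, had 0.99 ± 0.19 (adjusted p = 0.000236), with DKO overlapping WT. Yap1 itself was -0.11 ± 0.17 (adjusted p = 0.665) and not called. The letters GGAATG on either strand, a TEAD core, stood in 12 of 19 list promoters (63.2%), in 14.6% of 27025 promoters and in 12.3% of the 11372 of genes tested. For all increases beyond the sum the share was 11.8% of 1519 promoters, near the 12.2% of 7174 for genes with no called interaction. A promoter here is the RefSeq window of GRCm38.p6 from 250 bases before to 50 after a gene's start, and the shares are a description with no test.

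Calcium-binding and adhesion genes went both ways. Of 27 annexin, S100 and integrin genes 6 were above and 4 below 0 (median 0.10), and with total counts alone 10 above and 1 below. The count below was 7 without WT replicate 1 and with only the 4 groups, and 8 by DESeq2. S100a6, a calcium-binding protein of ductular and injured epithelium, had 225, 162, 167 and 177 CPM in DKO, 3.61, 4.36, 4.54 and 4.24 in TSC1 KO, 7.24, 7.64, 5.26 and 8.35 in Atg5 KO and 1.7, 1.04, 2.54 and 1.58 in WT libraries. Each single deletion was above WT and DKO above each, beyond the 17.4 CPM of the sum, with an interaction of 3.41 ± 0.47 (adjusted p = 8e-06). Anxa3, an annexin, had 280, 215, 261 and 244 CPM in DKO, 4.59, 7.59, 11.5 and 7.98 in TSC1 KO, 18.8, 11.7, 13.9 and 15.5 in Atg5 KO and 4.31, 3.81, 5.4 and 3.41 in WT libraries. Its interaction was 3.16 ± 0.41 (adjusted p = 4.44e-06). Itga3, an integrin subunit, had 1.65 ± 0.28 (adjusted p = 7.29e-05). Anxa5 was an increase short of the sum at -1.09 ± 0.28 (adjusted p = 0.00408), and was not called with total counts alone (-0.63, adjusted p = 0.117). Epithelial junction and keratin genes were called above 0 in 6 of 29 and below in 5 (median 0.15), which is near the shares of all genes, 15.5% and 19.3%. With total counts alone they were called above in 11 and below in 3 (median 0.66), and without the filter in 5 and 3. Jup and Dsg2, of desmosomes, had 0.86 ± 0.13 (adjusted p = 2.04e-05) and 1.27 ± 0.22 (adjusted p = 0.000111). Gjb1, the main gap junction protein of hepatocytes, and Cldn1, a tight junction protein, went the other way with -1.96 ± 0.25 (adjusted p = 3.31e-06) and -3.14 ± 0.41 (adjusted p = 4.4e-06).

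Stellate cell and fibrosis genes were called above 0 in 10 of 35 and below in 3 (median 0.41), and in 11 and 2 with total counts alone. Their summed level was 3261 to 3912 CPM in DKO, 1737 to 2440 in TSC1 KO, 2017 to 2740 in Atg5 KO and 1946 to 3003 in WT. Mmp14, a membrane metalloproteinase, had 114, 126, 156 and 154 CPM in DKO, 31.7, 40.9, 32 and 28.7 in TSC1 KO, 39.8, 39.3, 32.8 and 35.2 in Atg5 KO and 44.7, 41.3, 22.8 and 28.5 in WT libraries. The other 3 groups overlapped each other, DKO lay above them, and the interaction was 1.94 ± 0.27 (adjusted p = 7.67e-06). Col4a1 and Col4a2, basement membrane collagens that overlap each other on opposite strands, had 1.21 ± 0.32 (adjusted p = 0.00571) and 1.79 ± 0.37 (adjusted p = 0.000762). Fn1, fibronectin, was a decrease short of the sum at 0.82 ± 0.31 (adjusted p = 0.0424). Without TSC1 KO replicate 1 the list had 6 above and 4 below, and Fn1 lost its call in 13 of the 16 fits that leave out 1 library.

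Markers of immune and vascular cells differed in how often they departed from the sum, and the part of cell numbers in the results was not tested. The share of members called was 34.6% for macrophage, 66.7% for neutrophil, 36.4% for endothelial and 4.76% for lymphocyte genes, beside 34.8% of all genes. Macrophage and Kupffer cell genes were called above 0 in 8 of 26 and below in 1 (median 0.66), in 5 and 2 without Atg5 KO replicate 2, and in 3 and 1 without TSC1 KO replicate 1. The count above was also 5 without DKO replicate 2, TSC1 KO replicate 2 or 3, or WT replicate 2 and with only the 4 groups, and 4 without WT replicate 1 and without the filter. With total counts alone 13 were above and 0 below (median 1.12). Csf1r, the receptor for the macrophage growth factor CSF1, had 112, 104, 105 and 94.9 CPM in DKO, 11.9, 13.6, 18 and 19.5 in TSC1 KO, 76.2, 37, 78.6 and 73.5 in Atg5 KO and 43.9, 39.8, 29 and 17.9 in WT libraries. TSC1 KO had the lowest levels and overlapped WT, Atg5 KO replicate 2 was low in its group, and DKO lay above all, with an interaction of 1.7 ± 0.35 (adjusted p = 0.000611), and 1.45 (adjusted p = 0.000858) without Atg5 KO replicate 2. C1qb, a complement subunit, had 1.66 ± 0.39 (adjusted p = 0.00201) and Adgre1, the F4/80 antigen, 1.56 ± 0.46 (adjusted p = 0.0117), with Atg5 KO overlapping DKO in both. Cd163, a scavenger receptor of resident macrophages, had 2.12 ± 0.79 (adjusted p = 0.0416) as a decrease short of the sum, from low counts, and lost its call in 11 of the 16 fits without 1 library. Neutrophil genes were called above 0 in 6 of 9 (median 2.58), at summed levels of only 12.3 to 26.2 CPM in DKO, 2.42 to 5.02 in TSC1 KO, 3.5 to 13.5 in Atg5 KO and 7.67 to 17.1 in WT. Without WT replicate 1 the count was 2, and with total counts alone 6. Of the 6 called on the TMM scale, 5 were not called in DKO versus WT. The list's median change against WT was 0.67 in DKO, -1.53 in TSC1 KO and -0.49 in Atg5 KO. S100a9, Retnlg and Csf3r, all of neutrophils, had 3.0 ± 0.94 (adjusted p = 0.0164), 5.34 ± 1.49 (adjusted p = 0.00749) and 1.7 ± 0.63 (adjusted p = 0.0397), and Csf3r lost its call in 11 of the 16 fits without 1 library. Lymphocyte genes were called above 0 in 0 of 21 and below in 1, above and below in 1 each with total counts alone, and below in 2 without DKO replicate 4, TSC1 KO replicate 3 or TSC1 KO replicate 4. Cd8a and Ptprc, the markers CD8 and CD45, had -1.59 ± 1.04 (adjusted p = 0.254) and 0.67 ± 0.43 (adjusted p = 0.248). Endothelial genes were called above 0 in 6 of 22 and below in 2 (median 0.46), in 7 and 1 with total counts alone, in 3 and 2 without WT replicate 1, and in 3 and 3 without WT replicate 3. Vwf and Pecam1 had 2.7 ± 0.54 (adjusted p = 0.000503) and 1.15 ± 0.35 (adjusted p = 0.0132), and the sinusoidal scavenger receptors Stab1 and Stab2 had 1.03 ± 0.26 (adjusted p = 0.00364) and -1.58 ± 0.27 (adjusted p = 7.15e-05), in opposite directions.

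At the median, ductular genes were close to the sum on the TMM scale. The list was called above 0 in 4 of 28 and below in 2, with a median interaction of 0.10. With total counts alone the counts were 8 and 1 and the median 0.57, and by DESeq2 the counts were 7 and 3. The median interaction of all genes was 0.52 on the total count scale. The count below was 1 without any 1 of DKO replicates 1 and 4, TSC1 KO replicate 4, Atg5 KO replicates 1, 3 and 4, and WT replicates 1 and 2. The summed level of the list was 8688 to 12309 CPM in DKO, 1026 to 1454 in TSC1 KO, 925 to 1784 in Atg5 KO and 412 to 494 in WT. Spp1, osteopontin, had 7680, 6557, 9305 and 6047 CPM in DKO, 510, 815, 851 and 666 in TSC1 KO, 980, 374, 571 and 909 in Atg5 KO and 73.9, 74, 50.4 and 76.2 in WT libraries. Both single deletions were above WT by 3.37 log2, DKO by 6.75, and the interaction was 0.01 ± 0.38 (adjusted p = 0.985) with a 95% interval (t distribution, 18 degrees of freedom) from -0.79 to 0.81. Aqp1, a water channel, had 2.0 ± 0.47 (adjusted p = 0.00209), and Tmprss2, a serine protease, 1.93 ± 0.45 (adjusted p = 0.00186). Krt23, a keratin of stressed ducts, was short of the sum at -2.65 ± 0.61 (adjusted p = 0.0016). Of 31 cell cycle genes 1 was called, Cdt1, which licenses replication origins, at -1.43 ± 0.45 (adjusted p = 0.0162). Cdt1 lost its call with total counts alone (-0.96, adjusted p = 0.114), when another gene was called above 0, and without Atg5 KO replicate 4. The count below 0 was 2 without DKO replicate 2 or WT replicate 3 and 3 without Atg5 KO replicate 2. Ccnd1, cyclin D1, had 0.13 ± 0.42 (adjusted p = 0.847) and was not called.

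Growth factor and chemokine genes were mixed. EGFR, MET and TGF-beta ligands and receptors were called above 0 in 6 of 30 and below in 1 (median 0.38), in 14 and 0 with total counts alone, in 3 and 2 without WT replicate 1, and in 4 and 2 without Atg5 KO replicate 2. All genes tested were called above 0 in 15.5% and below in 19.3%. Erbb2, a receptor of the EGFR family, had 26.3, 26.3, 30.4 and 42.8 CPM in DKO, 2.19, 2.75, 3 and 3.35 in TSC1 KO, 3.89, 1.98, 1.83 and 3.24 in Atg5 KO and 2.16, 1.62, 0.953 and 0.731 in WT libraries. DKO lay above the other groups, with an interaction of 2.47 ± 0.54 (adjusted p = 0.00114). Inhbb, a subunit of activin B, had 2.56 ± 0.50 (adjusted p = 0.00034), and Tgfb1 0.95 ± 0.23 (adjusted p = 0.00289). Egfr had -1.47 ± 0.68 (adjusted p = 0.0994) and was not called. Chemokine and cytokine genes were called above 0 in 7 of 24 and below in 5 (median 0.80, and -0.43 without WT replicate 1), and in 10 and 3 with total counts alone. Ccl2, which draws monocytes, had 14.1, 82.9, 61.6 and 73.7 CPM in DKO, 0.547, 0.379, 0.29 and 0.493 in TSC1 KO, 17.4, 5.03, 18.4 and 19.8 in Atg5 KO and 4.76, 3, 6.77 and 0.487 in WT libraries. TSC1 KO lay at or below 0.547 CPM, DKO overlapped Atg5 KO, Atg5 KO replicate 2 was low in its group, and the interaction was 5.07 ± 0.95 (adjusted p = 0.000317), and 4.73 (adjusted p = 0.000542) without Atg5 KO replicate 2. Ccl9 and Cxcl12, chemokines, had -2.71 ± 0.31 (adjusted p = 8.82e-07) and -0.92 ± 0.30 (adjusted p = 0.0197), and Cxcl12 lost its call with total counts alone. Of 20 p53 targets 2 were above and 2 below 0, a smaller share than the 34.8% of all genes. Total counts alone gave 7 above and 2 below, and without Atg5 KO replicate 3 the count above was 4. Pmaip1, which encodes the death protein NOXA, and Zmat3, an RNA-binding protein, had 4.13 ± 0.61 (adjusted p = 1.71e-05) and 1.99 ± 0.33 (adjusted p = 6.86e-05), and Plk3, a kinase, -2.37 ± 0.66 (adjusted p = 0.00855).

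NRF2 antioxidant targets were called below 0 in 22 of 40 and above in 1, with a median of -1.04. Of the 22, 11 were above WT in DKO but short of the sum, 6 were below WT beyond the sum, and 5 were not called in DKO versus WT. With total counts alone the counts were 9 below and 2 above, without the filter on low counts 13 and 1, and without Atg5 KO replicate 3 17 and 2. Gstm3, a mu-class glutathione transferase, had 476, 750, 323 and 134 CPM in DKO, 94.5, 203, 66.4 and 111 in TSC1 KO, 2154, 1021, 3570 and 2847 in Atg5 KO and 68.9, 62.4, 71.6 and 52.1 in WT libraries. Atg5 KO had the highest level, DKO lay below Atg5 KO and overlapped TSC1 KO, and the interaction was -3.41 ± 0.72 (adjusted p = 0.000973). Gstm4, of the same cluster, had 65.8, 110, 54.1 and 29.1 CPM in DKO, 136, 111, 99.6 and 115 in TSC1 KO, 427, 226, 582 and 395 in Atg5 KO and 88.4, 77.3, 75.7 and 45.8 in WT libraries. It rose in Atg5 KO and overlapped WT in DKO, with an interaction of -3.34 ± 0.47 (adjusted p = 1.28e-05). Gstm1 had -1.89 ± 0.46 (adjusted p = 0.00254) and Gsta4, of the alpha class, -1.8 ± 0.37 (adjusted p = 0.000592). Reads may be split uncertainly between the near copies of these clusters. Cyp2a4, a P450, was named as an increase short of the sum and not from the NRF2 list. It had 190, 394, 52.5 and 58.9 CPM in DKO, 7.54, 4.08, 0.483 and 0.69 in TSC1 KO, 1597, 490, 2673 and 2006 in Atg5 KO and 4.08, 1.39, 0.106 and 0.974 in WT libraries. The interaction was -4.23 ± 1.44 (adjusted p = 0.0282), from wide groups, and it lost its call without TSC1 KO replicate 1, Atg5 KO replicate 3 or WT replicate 3. The ferritin light chain Ftl1 had -1.83 ± 0.35 (adjusted p = 0.000307), and the heavy chain Fth1 -0.15 ± 0.28 (adjusted p = 0.716), not called.

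The promoters of Gstm3 (chr3:107969125-107969424, minus strand) and Gstm4 (chr3:108044810-108045109, minus strand) are shown because the DKO levels of both genes were far below the sum. They are lower case throughout, as neither holds the NRF2 core TGACNNNGC on either strand, where a match would be in capitals.
Gstm3: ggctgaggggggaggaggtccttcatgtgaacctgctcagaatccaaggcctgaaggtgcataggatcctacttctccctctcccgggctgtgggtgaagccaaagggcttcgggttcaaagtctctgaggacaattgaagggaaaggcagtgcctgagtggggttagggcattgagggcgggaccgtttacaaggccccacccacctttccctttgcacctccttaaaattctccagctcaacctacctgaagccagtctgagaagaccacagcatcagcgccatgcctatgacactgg
Gstm4: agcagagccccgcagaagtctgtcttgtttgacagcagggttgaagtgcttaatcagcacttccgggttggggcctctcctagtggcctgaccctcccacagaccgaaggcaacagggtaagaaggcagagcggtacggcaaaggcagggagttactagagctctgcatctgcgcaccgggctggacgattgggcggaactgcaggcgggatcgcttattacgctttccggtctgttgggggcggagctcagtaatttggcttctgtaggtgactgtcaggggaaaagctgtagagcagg
No match says only that these letters are not in this window. The core stood in 8 of 35 promoters of the list (22.9%), in 12.5% of 27025 promoters and in 14.7% of the 11372 of genes tested. The looser TGANNNNGC stood in 22 of 35 (62.9%), against 41.4% and 42.9%. The looser form stood in both promoters shown. A set of 10 motifs was searched on both strands, and these shares and promoters were chosen after the values had been seen. Others were GCGCA, any base, GCGC, then TCAAGGTCA, CAAAGTCCA, TTGCGCAA and TGANTCA, of the factors NRF1, ESRRA, HNF4A, CEBP and AP-1. In the 21 promoters of oxidative phosphorylation genes they stood in 3, 1, 0, 0 and 2, against 9.55%, 0.264%, 0.528%, 0.273% and 5.4% of the promoters of genes tested and 4.78%, 0.407%, 0.477%, 0.185% and 7.93% of all promoters.

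Interferon-stimulated genes were called below 0 in 8 of 25 and above in 0, with a median of -0.76, and below in 6 and above in 2 with total counts alone (median -0.28). The median change of the list against WT was 1.32 in DKO, -0.11 in TSC1 KO and 2.03 in Atg5 KO. Rsad2, an antiviral radical enzyme, had 95, 59.5, 46.3 and 102 CPM in DKO, 12.7, 20.2, 14.5 and 13.7 in TSC1 KO, 696, 232, 1082 and 699 in Atg5 KO and 11.1, 12, 11.2 and 3.78 in WT libraries. The order was Atg5 KO, DKO, TSC1 KO and WT from high to low, TSC1 KO and DKO did not overlap, and the interaction was -3.84 ± 0.56 (adjusted p = 2.08e-05). Isg15, a ubiquitin-like modifier, had 15, 19.2, 17.2 and 17 CPM in DKO, 12.8, 7.87, 7.73 and 15.1 in TSC1 KO, 91.2, 31.5, 146 and 142 in Atg5 KO and 12.4, 10.3, 8.89 and 9.13 in WT libraries. DKO overlapped TSC1 KO, and the interaction was -2.68 ± 0.47 (adjusted p = 0.000153). Cxcl10, a T-cell chemokine, had 4.4, 6.6, 7.14 and 11.9 CPM in DKO, 1.09, 3.79, 2.03 and 3.25 in TSC1 KO, 92.7, 38.1, 151 and 100 in Atg5 KO and 2.72, 3.23, 4.02 and 1.46 in WT libraries. DKO lay above TSC1 KO and WT and below Atg5 KO, with an interaction of -3.5 ± 0.67 (adjusted p = 0.00039). Oasl1 and Ifih1, the latter a sensor of viral RNA, had -2.5 ± 0.52 (adjusted p = 0.000867) and -1.25 ± 0.26 (adjusted p = 0.000629). Atg5 KO replicate 2 was the low library of its group in each of these 5 genes, and without it Rsad2 had -4.18, Isg15 -3.03, Cxcl10 -3.81, Oasl1 -2.84 and Ifih1 -1.49, all called.

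The promoters of Rsad2 (chr12:26456403-26456702), Isg15 (chr4:156200769-156201068), Cxcl10 (chr5:92348840-92349139) and Ifih1 (chr2:62646206-62646505), all on the minus strand of GRCm38.p6 and from RefSeq, are shown because the DKO levels of all 4 genes were below the sum. Capitals mark the interferon-stimulated response element, GAAA, any 2 bases and GAAA again, on either strand.
Rsad2: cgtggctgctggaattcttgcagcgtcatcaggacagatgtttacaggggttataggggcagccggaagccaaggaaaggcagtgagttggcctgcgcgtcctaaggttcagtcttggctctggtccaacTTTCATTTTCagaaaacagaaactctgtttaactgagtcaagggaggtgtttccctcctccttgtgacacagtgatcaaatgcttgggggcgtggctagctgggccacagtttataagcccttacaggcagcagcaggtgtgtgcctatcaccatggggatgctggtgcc
Isg15: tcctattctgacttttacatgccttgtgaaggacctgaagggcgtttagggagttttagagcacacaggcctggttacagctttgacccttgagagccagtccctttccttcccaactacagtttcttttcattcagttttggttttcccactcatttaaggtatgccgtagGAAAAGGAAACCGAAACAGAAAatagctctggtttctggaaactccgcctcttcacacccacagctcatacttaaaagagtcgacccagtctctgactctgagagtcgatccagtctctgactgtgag
Cxcl10: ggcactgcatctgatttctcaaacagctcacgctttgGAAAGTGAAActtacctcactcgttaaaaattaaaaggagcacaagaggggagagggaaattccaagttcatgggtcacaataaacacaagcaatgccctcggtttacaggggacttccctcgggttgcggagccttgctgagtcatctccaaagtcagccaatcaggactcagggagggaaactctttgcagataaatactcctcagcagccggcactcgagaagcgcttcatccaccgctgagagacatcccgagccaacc
Ifih1: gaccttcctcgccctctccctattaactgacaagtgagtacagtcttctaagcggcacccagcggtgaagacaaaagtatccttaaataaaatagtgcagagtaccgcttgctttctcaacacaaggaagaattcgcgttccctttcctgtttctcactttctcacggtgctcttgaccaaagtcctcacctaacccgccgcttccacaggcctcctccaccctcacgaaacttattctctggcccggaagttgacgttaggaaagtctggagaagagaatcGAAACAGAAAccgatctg
Isg15 held 3 matches that overlap each other, and the other 3 genes 1 each, starting at -120 in Rsad2, -213 in Cxcl10 and 32 in Ifih1, where 0 is the first base of the gene. No match overlapped one of the other motifs. The motif stood in 12 of 18 list promoters (66.7%), in 3.49% of all promoters and in 3.23% of those of genes tested. Oasl1, whose window holds no match, also had an interaction below 0.

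Other increases short of the sum had a single deletion high. Ntrk2, the neurotrophin receptor TrkB, had 13.7, 13.4, 22.4 and 11.9 CPM in DKO, 9.62, 18, 16.2 and 8.37 in TSC1 KO, 60.6, 53.7, 40.2 and 47.3 in Atg5 KO and 0.681, 1.04, 0.423 and 0.122 in WT libraries. TSC1 KO and DKO overlapped, and the interaction was -6.22 ± 0.52 (adjusted p = 4.11e-08). Col5a2, a fibrillar collagen, had 38.7, 31.5, 35.3 and 42.5 CPM in DKO, 282, 672, 334 and 196 in TSC1 KO, 13.8, 19.5, 8.04 and 13 in Atg5 KO and 5.11, 3.58, 3.81 and 3.41 in WT libraries. TSC1 KO was highest, DKO lay between TSC1 KO and Atg5 KO, and the interaction was -5.09 ± 0.61 (adjusted p = 1.94e-06). Abcc12 and Abcd2, ABC transporters, had -6.0 ± 0.89 (adjusted p = 2.79e-05) and -4.26 ± 0.69 (adjusted p = 6.61e-05), Defb1, an antimicrobial peptide, -4.31 ± 0.80 (adjusted p = 0.000294), and Tnfrsf25, a death receptor, -4.22 ± 0.78 (adjusted p = 0.000219).

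Lysosome, autophagy and mTORC1 genes departed from the sum about as often as all genes tested, in both directions. Lysosome and autophagy genes were called above 0 in 5 of 39 and below in 9 (median -0.17), and in 14 and 3 (median 0.32) with total counts alone. mTORC1 pathway genes were called above 0 in 4 of 35 and below in 6 (median -0.23), and in 11 and 3 (median 0.27) with total counts alone, so no direction is given for either list. The 5 above of lysosome and autophagy genes became 3 without TSC1 KO replicate 1 or WT replicate 4, and the 9 below became 4 without the filter. The 4 above of mTORC1 genes became 2 without any 1 of DKO replicate 4, TSC1 KO replicates 1 and 3, and WT replicates 1 and 2. Rragd, a Rag GTPase that signals amino acids to mTORC1, had 143, 172, 178 and 167 CPM in DKO, 30.6, 53.3, 41.4 and 36.5 in TSC1 KO, 59.2, 15.2, 55.6 and 67.1 in Atg5 KO and 1.13, 3.12, 1.59 and 1.1 in WT libraries. Each single deletion was high against WT, DKO higher, but below the sum's 1149 CPM, and the interaction was -2.79 ± 0.49 (adjusted p = 0.000161). Gabarapl1, an ATG8 protein, had 386, 430, 443 and 364 CPM in DKO, 882, 1278, 1189 and 1069 in TSC1 KO, 281, 408, 295 and 222 in Atg5 KO and 296, 287, 490 and 266 in WT libraries. TSC1 KO stood above the other groups and DKO overlapped WT, with an interaction of -1.3 ± 0.28 (adjusted p = 0.000978). Map1lc3b, LC3B, had 0.95 ± 0.24 (adjusted p = 0.0033), Ctsl, cathepsin L, -0.44 ± 0.25 (adjusted p = 0.189) and no call, Deptor, an inhibitor of mTOR, -0.97 ± 0.19 (adjusted p = 0.000378), and Castor2, an arginine-sensor relative, 1.2 ± 0.27 (adjusted p = 0.0015).

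ATF4 and unfolded protein genes were called above 0 in 7 of 34 and below in 4 (median -0.17), in 12 and 2 with total counts alone (median 0.32), and in 7 and 7 with only the 4 groups. The 32.4% called in either direction on the TMM scale is near the 34.8% of all genes tested. Nupr1, a stress-induced nuclear protein, had 393, 215, 264 and 442 CPM in DKO, 15.4, 31.8, 20.1 and 17.7 in TSC1 KO, 1.91, 2.25, 3.11 and 3.57 in Atg5 KO and 1.7, 1.5, 1.16 and 1.1 in WT libraries. TSC1 KO lay above Atg5 KO and WT, DKO above all, and the interaction was 2.97 ± 0.62 (adjusted p = 0.000832). Psat1, of serine synthesis, and Slc7a5, an amino acid carrier, had 2.33 ± 0.53 (adjusted p = 0.00142) and 2.25 ± 0.48 (adjusted p = 0.0008), Shmt2, of mitochondrial one-carbon metabolism, -1.75 ± 0.21 (adjusted p = 1.35e-06), and Hspa5, the chaperone BiP, -0.57 ± 0.37 (adjusted p = 0.247) and no call.

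Decreases short of the sum were few. Serpine2, a protease inhibitor, had 27.3, 28.5, 30.8 and 44.2 CPM in DKO, 19.5, 17.1, 15.8 and 15 in TSC1 KO, 16.2, 21.7, 10 and 8.92 in Atg5 KO and 37.4, 50.8, 67.5 and 54.1 in WT libraries. Each single deletion lay below WT and DKO overlapped WT, with an interaction of 2.84 ± 0.38 (adjusted p = 5.26e-06). Cxcl1, a neutrophil chemokine, had 6.51, 28.1, 21.9 and 25.3 CPM in DKO, 11.2, 18.5, 9.66 and 19.3 in TSC1 KO, 22.9, 10.2, 50.8 and 23.7 in Atg5 KO and 382, 266, 92.6 and 134 in WT libraries. All mutant groups lay below WT, and the interaction was 3.5 ± 1.09 (adjusted p = 0.0179). Fndc3b, Syne4, Aatk and Lbp, the LPS-binding protein, had 2.2 ± 0.34, 2.76 ± 0.59, 2.32 ± 0.47 and 1.94 ± 0.48.

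Acute-phase genes varied widely among WT libraries. They were called above 0 in 2 of 25 and below in 6 (median 0.08), in 2 and 7 without WT replicate 4 (median -0.94), and in 4 and 4 with total counts alone. Lcn2, an iron-binding acute-phase protein, had 334, 343, 381 and 359 CPM in DKO, 5.9, 9.67, 8.21 and 16.5 in TSC1 KO, 82.9, 15.5, 114 and 755 in Atg5 KO and 469, 290, 21.1 and 2844 in WT libraries. WT ran from 21.1 to 2844 CPM, and the interaction was 7.04 ± 1.79 (adjusted p = 0.00473), and 5.15 (adjusted p = 0.0198) without WT replicate 4. Mt1 and Mt2, metallothioneins, had 5.13 ± 1.56 (adjusted p = 0.0154) and 6.14 ± 1.84 (adjusted p = 0.0142), and neither was called without WT replicate 4 (2.73, adjusted p = 0.112, and 3.62, adjusted p = 0.09). Hp and Hpx, haptoglobin and hemopexin, had 0.79 ± 0.62 (adjusted p = 0.353) and 0.08 ± 0.46 (adjusted p = 0.912) and were not called, with 0.035 and -0.46 without WT replicate 4. Mbl1, Mbl2 and C9, lectin and terminal complement genes, had -2.56 ± 0.35 (adjusted p = 7.12e-06), -3.7 ± 0.55 (adjusted p = 2.42e-05) and -3.52 ± 0.52 (adjusted p = 2e-05).

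Among genes with a called interaction but no call in DKO versus WT, Ighm, the IgM heavy chain, had 8.63, 9.61, 10.4 and 6.22 CPM in DKO, 89, 8.25, 43.1 and 43.2 in TSC1 KO, 70.7, 8.63, 91.6 and 64.9 in Atg5 KO and 8.74, 8.09, 8.89 and 9.38 in WT libraries. Both single deletions were high in 3 of 4 libraries and DKO overlapped WT, with an interaction of -5.14 ± 0.84 (adjusted p = 8.37e-05). Serpinb1a, a protease inhibitor, and Chrna4, a nicotinic receptor subunit, had -4.98 ± 0.90 (adjusted p = 0.000247) and -4.96 ± 1.43 (adjusted p = 0.0111).

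Cytosolic ribosomal protein genes were called above 0 in 10 of 32 and below in 0 (median 0.28), in 27 with total counts alone, in 6 with only the 4 groups and in 2, with 1 below, without WT replicate 4. Of the 10, 9 were not called in DKO versus WT. The median change of the list against WT was 0.0 in DKO, -0.19 in TSC1 KO and -0.09 in Atg5 KO. Without any 1 of the other libraries 4 to 10 were above, and 4 to 6 without 12 of them, the exceptions being DKO replicate 4 and Atg5 KO replicates 1 and 3. Without DKO replicate 1, 2 were below 0, and without DKO replicates 2 or 4, 1. Rpl5 and Rpl3 had interactions of 0.88 ± 0.18 (adjusted p = 0.000514) and 1.12 ± 0.24 (adjusted p = 0.000807), and the abundant Rplp0 0.54 ± 0.18 (adjusted p = 0.0252), which lost its call in 11 of the 16 fits without 1 library.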

How the data were processed

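Liver RNA of 4 genotypes, 4 libraries each, was compared, with groups taken from the labels. Per the labels' protocols, libraries of polyadenylated RNA were made with a stranded kit and sequenced from 1 end to 75 bp. The deposited table holds raw counts for each Ensembl gene, which the authors made with Trimmomatic 0.36, HISAT2 2.1.0, HTSeq and GRCm38, per the submitters' processing notes. The sources used here do not give the HTSeq version and strand setting, and 42 of the 141 genes named, which overlap a gene on the other strand in GENCODE M21, may share counts. Of 33019 identifiers 32938 had a symbol there.

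Genes were filtered with filterByExpr over 6 groups, scaled by TMM and fitted on 24 libraries, each genotype with its own mean and 18 residual degrees of freedom, by edgeR's robust quasi-likelihood method (edgeR 4.0.16, limma 3.58.1, R 4.3.3). Calls are at a Benjamini-Hochberg adjusted p under 0.05 over 15851 genes. Values after ± are SEs, the size of the log2 value divided by the square root of F. Principal components used log2 CPM with a prior count of 2. Tables, figures and motif matches were made with Python 3.11.15, pandas 2.3.3, numpy 2.4.6 and matplotlib 3.10.9. The test was also run on simulated counts with known interactions. It called 4% of 1.5-fold, 28% of 2-fold, 58% of 4-fold and 86% of 8-fold interactions in the right direction, with 50 genes each. Of 15088 unchanged genes it called 6. A gene that was not called may therefore still hold an interaction of 2-fold or more.

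Genes were named by a rule: Atg5 and Tsc1, the 7 largest interactions in each of 4 classes and 6 in the class not called in DKO versus WT (at least 10 CPM in the highest group and 10 counts in each group, predicted genes passed over), and from each of 32 lists up to 4 members with the smallest p and 2 with the highest level. The rule allowed 204 genes, of which 141 were taken after their values were seen, and some other genes and 1 motif are not reported here. Members and lists were chosen with earlier results of these data known. Replicate numbers did not pair the libraries. Alternatives were DESeq2 1.42.0, its size factors, total counts alone, no filter, only the 4 groups, a replicate block and leaving out each library. Leaving out Atg5 KO replicate 2 or WT replicate 4 for list counts was chosen after seeing the data.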

Additional observations from a re-analysis of the deposited data

Results flagged for a closer look

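The Atg5 change differed between the Tsc1 backgrounds in 5517 genes, the called interactions, which is the question of the contrast itself and so holds for each of them. In 564 groups of 4 libraries, 141 genes by 4 genotypes, the highest or lowest library was checked for a gap to the others. In 40 groups (7.09%) 1 library stood apart, and chance gives about 1 in 20. Values below are in CPM, and what sets a library apart was not tested. DKO replicate 1 was high for Ces3a at 10.4, Ces3b at 3.83, Sult2a8 at 7.03, Mup21 at 3.14, Mup3 at 77.8, Elovl3 at 1.14 and Chrna4 at 4.68. DKO replicate 2 was high for Gsta4 at 186. DKO replicate 3 was high for Ntrk2 at 22.4 and Syne4 at 8.28. DKO replicate 4 was high for Pmaip1 at 41 and Lbp at 186. TSC1 KO replicate 1 was high for Apoa1 at 21438, Ugt2b5 at 1261 and Ftl1 at 2324. TSC1 KO replicate 1 was low for Nbl1 at 0.437. TSC1 KO replicate 2 was high for Abcc12 at 13.5. TSC1 KO replicate 2 was low for Mup3 at 7219 and Acaa2 at 850. TSC1 KO replicate 4 was high for Csf3r at 2.27. Atg5 KO replicate 2 was high for Tsc1 at 45.6, Ebp at 298, Igf2 at 2.43 and Abcd2 at 19.4. Atg5 KO replicate 2 was low for Ccl2 at 5.03, Anxa5 at 226, Csf1r at 37 and Psat1 at 1.26. Atg5 KO replicate 4 was high for Lcn2 at 755, Mt1 at 199 and Mt2 at 66.7. WT replicate 3 was high for Gabarapl1 at 490. WT replicate 3 was low for Spp1 at 50.4 and Fndc3b at 49.1. WT replicate 4 was high for Tnfrsf25 at 0.853, Lcn2 at 2844, Mt1 at 2212, Mt2 at 753 and Rplp0 at 815. WT replicate 4 was low for Rsad2 at 3.78.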

How the results depend on the processing

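The interaction was called in 5830 genes by DESeq2, 5478 with DESeq2 size factors, 7304 with total counts alone, 4588 without the filter, 5730 with only the 4 groups and 4888 to 5500 without 1 library, against 5517. Total counts alone moved the sign balance: 76.9% of interaction calls were above 0, against 44.4%. For DKO versus WT it gave 11158 higher and 1767 lower, for Atg5 KO 5719 and 349, and for TSC1 KO versus WT 1851 and 628. TSC1 KO versus WT was called in 1724 to 2272 genes without 1 library, against 2598, and the low end was without WT replicate 2. The replicate numbers are only names: same-numbered libraries correlated above 0.1 in 1 of 24 pairs and 5 of 24 correlated best with their own number. With the replicate block the interaction was called in 5388 genes, and DKO, Atg5 KO and TSC1 KO versus WT in 10912, 4607 and 2469. Genes near 0 changed sign: with total counts alone Yap1 was 0.39, Fth1 0.32 and Ctsl 0.058. Spp1 was -0.0043 by DESeq2, -0.0041 with its size factors, -0.061 with only the 4 groups and -0.26 to 0.21 without 1 library. Without 1 library Ccnd1 ran from -0.12 to 0.27 and Hpx from -0.46 to 0.26. Calls were gained by Tsc1 with total counts alone, by H19 and Ldha with DESeq2, and by H19, Ldha and Egfr with only the 4 groups. List counts that move with 1 library are given beside each list. The cause of these moves was not tested. Depth limits genes of a few CPM, such as Retnlg, Cd163 and Igf2 outside DKO.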
